A study of Homo sapiens with 12 samples.

Results

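The CREB3 family are transcription factors held in the membrane of the endoplasmic reticulum (ER). The 4 family members CREB3, CREB3L1, CREB3L2 and CREB3L4 and the protease MBTPS1, which cuts them, are described here across 2 lines of human mammary epithelial cells given salinomycin or the mock. The 5 genes were chosen by name, from what their proteins are known to do, out of 26357 gene names alike in all 4 deposited tables. Earlier results of these data were known when they were chosen. All 5 passed the filter on low levels and are among the 12031 genes tested. HMLE is an immortalised breast epithelial line. HMLE-Twist is labelled EMT (epithelial-mesenchymal transition) and HMLE-pBp is labelled nonEMT. Each line received either DMSO (mock) or 0.2 uM salinomycin, a potassium ionophore, for 24 h, and each of the 4 groups holds 3 biological replicates. Each condition rests on 1 line, and how TWIST1 expression is driven in HMLE-Twist is not given in the sources used here.

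Factors of this family span the ER membrane with a bZIP DNA-binding domain on the cytosolic side. When they are carried to the Golgi, MBTPS1 (site-1 protease) cuts them on the luminal side and MBTPS2 (site-2 protease) then cuts inside the membrane, which frees the part that enters the nucleus. CREB3 is known for inducing ARF4 when the Golgi is stressed. CREB3L1 (OASIS) is known for driving collagen genes in bone and other matrix-producing cells, and CREB3L2 (BBF2H7) for driving COPII coat genes in cartilage. CREB3L4 is best known from prostate and testis. An mRNA level says nothing of how much of a protein is cut.

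With salinomycin CREB3 mRNA rose in both lines, CREB3L1 fell in HMLE-Twist, and CREB3L2 rose by less in HMLE-Twist. These 3 genes passed the test in at least 1 line, so the 250 bases before their RefSeq starts (GRCh38.p14) are shown, 5′ to 3′ on the strand of the gene, with the motifs found in capitals. The CREB3 stretch is chr9:35732416-35732665 on the plus strand, the CREB3L1 stretch chr11:46294909-46295158 on the plus strand, and the CREB3L2 stretch chr7:138002087-138002336 on the minus strand. RefSeq gives CREB3L2 another start, with chr7:137932989-137933238 before it, which is not printed.
CREB3: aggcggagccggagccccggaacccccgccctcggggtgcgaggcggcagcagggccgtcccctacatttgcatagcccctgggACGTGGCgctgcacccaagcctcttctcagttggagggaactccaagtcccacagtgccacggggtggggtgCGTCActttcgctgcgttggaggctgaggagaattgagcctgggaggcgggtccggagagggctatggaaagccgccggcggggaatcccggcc
CREB3L1: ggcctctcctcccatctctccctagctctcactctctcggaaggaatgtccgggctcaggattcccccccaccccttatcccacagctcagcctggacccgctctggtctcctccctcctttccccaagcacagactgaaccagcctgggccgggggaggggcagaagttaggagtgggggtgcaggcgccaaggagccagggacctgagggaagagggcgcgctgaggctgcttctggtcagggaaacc
CREB3L2: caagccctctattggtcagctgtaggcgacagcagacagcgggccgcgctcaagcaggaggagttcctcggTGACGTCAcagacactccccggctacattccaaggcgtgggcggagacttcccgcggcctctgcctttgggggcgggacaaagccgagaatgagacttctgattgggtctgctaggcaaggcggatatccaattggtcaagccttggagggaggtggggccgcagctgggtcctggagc

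Both strands were searched for 7 motifs of stress and cAMP signalling. CREB3 holds ACGTGGC, the letters of the Golgi apparatus stress response element, starting 166 bases before the gene start. That motif is in 2.85% of 27305 promoters of the same length. It also holds CGTCA, the reverse complement of TGACG, the core of the cAMP response element (21.7% of promoters), 94 bases before the start. CREB3L2 holds the full cAMP response element TGACGTCA, which contains that core on both strands, 179 bases before the start (1.77% of promoters). The stretch before the other CREB3L2 start and the CREB3L1 stretch held none of the 7. The others searched were the unfolded protein response element core TGACGTGG (0.667%), which shares letters with ACGTGGC, the amino acid response element TGATGCAA (0.82%), the E-box CACGTG (6.49%), and the ER stress response element, CCAAT and CCACG with 9 bases between them (0.0806%). A match of letters is a description of the sequence and not evidence of binding.

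The sequencing depth was 17.9 to 26.6 megareads recovered per library. The labelled lines were checked by their markers. TWIST1 lay between 498 and 1170 FPKM in the 6 HMLE-Twist libraries and between 1.81 and 2.51 FPKM in the 6 HMLE-pBp libraries. FPKM, the unit of level used throughout, is reads per kilobase of gene length and per library size, rebuilt on 1 scale for all 12 libraries. Summed over 5 epithelial markers the level was 3.2 to 6.9 FPKM in HMLE-Twist mock and 1.48 to 2.65 with salinomycin, and 2230 to 2610 FPKM in HMLE-pBp mock and 1960 to 2100 with salinomycin. The sum of 5 mesenchymal markers was 3040 to 3940 FPKM in HMLE-Twist mock and 4070 to 4860 with salinomycin, and 262 to 298 and 260 to 305 FPKM in HMLE-pBp. Of these 10 markers, KRT5 (-1.06 ± 0.19, limma adjusted p = 0.0017) and FN1 (0.61 ± 0.09, adjusted p = 0.000368) passed for salinomycin in HMLE-Twist. EPCAM (-0.62 ± 0.15, adjusted p = 0.0138), ESRP1 (0.51 ± 0.08, adjusted p = 0.00105) and CDH2 (-0.35 ± 0.1, adjusted p = 0.0331) passed in HMLE-pBp. KRT5 in HMLE-Twist went from a low mean of 2.79 FPKM to 0.751 FPKM. Of all tested genes, 26.6% passed for salinomycin in HMLE-Twist and 19.3% in HMLE-pBp, so such marker calls are ordinary. Any part of these markers in the changes of the CREB3 family below was not tested. Markers of leukocytes (3 genes) reached at most 28.8 FPKM, in HMLE-pBp mock, and markers of endothelium (3 genes) at most 0.185 FPKM. Nearly all of the leukocyte sum was CD14. Its mean was 22.6 FPKM in HMLE-pBp mock and 11.3 with salinomycin, and 1.26 and 1.19 FPKM in HMLE-Twist. PTPRC was at 0 reads in HMLE-pBp. In bulk RNA, fewer cells that express a gene and less RNA per cell cannot be told apart. Fold changes below are log2 differences of log2(FPKM + 1) with the SE of a limma fit over all 12 libraries, and adjusted p-values are Benjamini-Hochberg over all 12031 genes with a threshold of 0.05.

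CREB3 was higher with salinomycin in every treated library. Its HMLE-Twist values were 29.4, 34.9 and 31.4 FPKM for the mock against 65.5, 63.2 and 57.1 FPKM for salinomycin. The HMLE-pBp values were 35, 38.1 and 37.7 FPKM for the mock against 105, 83.5 and 73.1 FPKM for salinomycin. The treated and mock libraries did not overlap in either line, and the first replicate of HMLE-pBp salinomycin was the highest of all 12. The mean rose 1.94-fold in HMLE-Twist, a log2 fold change of 0.94 ± 0.12 (limma adjusted p = 0.000187). In HMLE-pBp the mean rose 2.36-fold, a log2 fold change of 1.2 ± 0.12 (limma adjusted p = 6.29e-05). The rise passed the test under each of the 23 alternatives run, with log2 fold changes of 0.88 to 1.0 in HMLE-Twist and 1.06 to 1.32 in HMLE-pBp. The lowest of the HMLE-pBp values was that without the high first replicate. The difference between the responses, HMLE-Twist minus HMLE-pBp, was -0.27 ± 0.17 (95% interval -0.64 to 0.1, limma adjusted p = 0.299) and did not pass. CREB3 shares 139 exon bases with GBA2 and 61 with TLN1 on the opposite strand, and whether reads were counted by strand is not given in the sources used here. GBA2, a glucosylceramidase, had log2 fold changes of 0.19 ± 0.09 (adjusted p = 0.139) in HMLE-Twist and -0.33 ± 0.09 (adjusted p = 0.0248) in HMLE-pBp, and TLN1, the cytoskeletal adaptor talin, 0.33 ± 0.08 (adjusted p = 0.00912) and 0.11 ± 0.08 (adjusted p = 0.336).

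**Figure D1:**
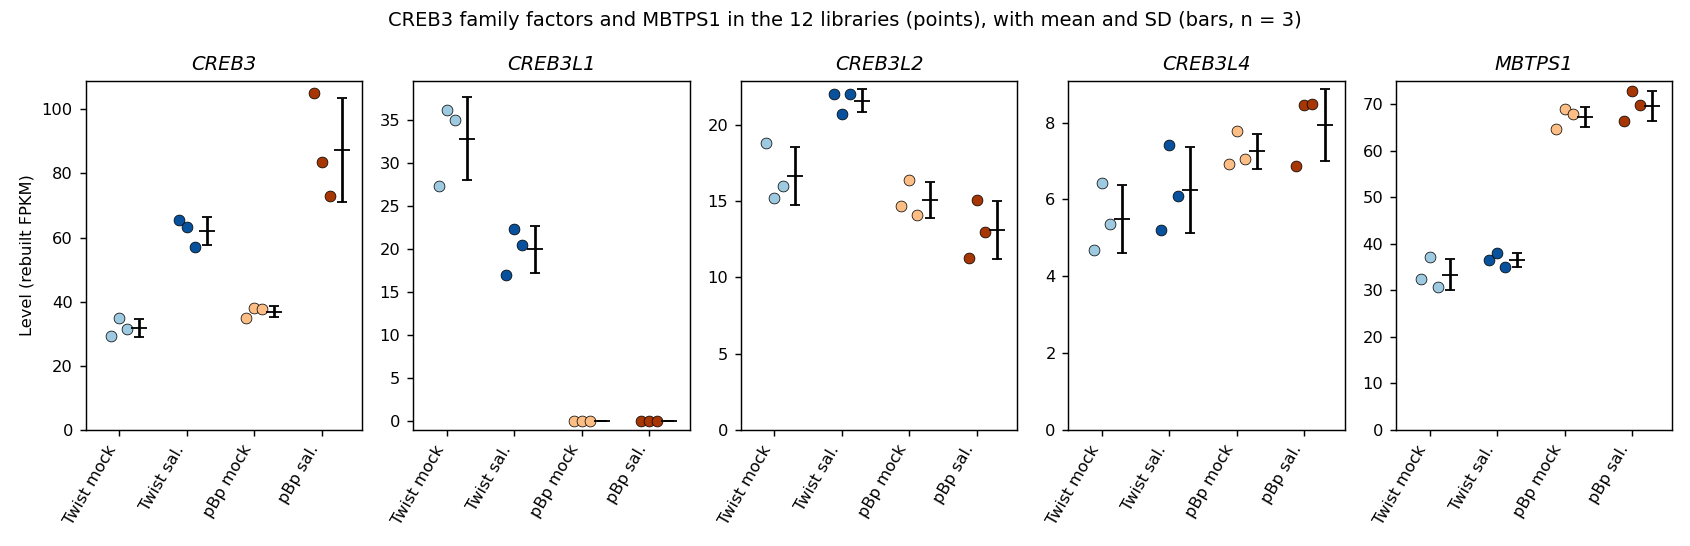
Level of each of the 5 genes (y axis, rebuilt FPKM, a separate linear scale for each gene) in the 12 libraries, by group on the x axis. Each point is 1 library and the bar beside it gives the mean and SD of 3. CREB3 is higher in all treated libraries of both lines, CREB3L1 is at or near 0 in HMLE-pBp, and MBTPS1 is higher in HMLE-pBp than in HMLE-Twist, with mock and treated libraries overlapping.

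CREB3L1 was expressed in HMLE-Twist and nearly absent from HMLE-pBp. In HMLE-Twist the mock libraries held 27.3, 36.1 and 35 FPKM and the salinomycin libraries 17, 22.3 and 20.5 FPKM. All 3 treated libraries lay below all 3 mock libraries. The mean fell to 0.607 of the mock mean, a log2 fold change of -0.69 ± 0.12 (limma adjusted p = 0.00123). The SE pools the spread within all 4 groups, and the HMLE-pBp libraries, near 0 FPKM, add almost none, which makes it smaller. The fall stayed past the threshold under each of the 23 alternatives (-0.81 to -0.59, highest limma adjusted p = 0.022). A fit of only the compared groups was among them. In HMLE-pBp the mock libraries held 4, 0 and 1 reads and the salinomycin libraries 1, 2 and 1 reads, so that no fall could have been seen there. Summed reads in the mock libraries were 6338 in HMLE-Twist and 5 in HMLE-pBp, a ratio of 1076 after scaling to library size (exact 95% binomial interval 461 to 3315, counting error only). With salinomycin they were 3819 and 4, a ratio of 805 (314 to 2956). The gene entered the test only through its HMLE-Twist libraries, so its contrast between lines is given as a level and supports no count. The difference of the responses was -0.68 ± 0.17 (limma adjusted p = 0.0209), and it is the fall in HMLE-Twist set against a line whose 0 to 4 reads per library leave no room for a fall. It lost the call with a pseudocount of 0.1 FPKM (adjusted p = 0.129), with limma-voom on recovered reads (0.573), and without HMLE-Twist mock 2 (-0.61, 0.0551), HMLE-Twist salinomycin 1 (-0.58, 0.053), HMLE-pBp mock 2 (-0.66, 0.0532) or HMLE-pBp mock 3 (-0.68, 0.0539).

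CREB3L2 rose modestly with salinomycin in HMLE-Twist. The mock libraries held 18.8, 15.2 and 16 FPKM and the salinomycin libraries 22, 20.7 and 22 FPKM, so the groups did not overlap. The ratio of means was 1.29 and the log2 fold change 0.36 ± 0.11 (limma adjusted p = 0.0286). In HMLE-pBp it lay at 14.7, 16.4 and 14.1 FPKM in the mock and at 11.3, 15.1 and 13 FPKM with salinomycin, with overlapping groups and a log2 fold change of -0.19 ± 0.11 (adjusted p = 0.235). The responses differed by 0.55 ± 0.15 between the lines (limma adjusted p = 0.0361). Both calls depended on which libraries were included. The HMLE-Twist rise missed the threshold without HMLE-Twist mock 2 (0.3, adjusted p = 0.105), mock 3 (0.33, 0.0634), salinomycin 1 (0.34, 0.0859), salinomycin 2 (0.39, 0.0512) or salinomycin 3 (0.34, 0.088), and held in the other 18 alternatives. The difference missed it with no filter on low levels (adjusted p = 0.0516). It also missed it without HMLE-Twist mock 2 (0.49, 0.0888), HMLE-Twist salinomycin 1 (0.53, 0.0839), salinomycin 2 (0.58, 0.0527) or salinomycin 3 (0.53, 0.087). The same held without HMLE-pBp mock 1 (0.56, 0.0566), mock 2 (0.49, 0.092), mock 3 (0.59, 0.0595), salinomycin 1 (0.46, 0.0715) or salinomycin 3 (0.54, 0.0535).

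CREB3L4 was the lowest of the factors expressed in both lines and did not pass the test for salinomycin in either line. In HMLE-Twist it lay at 4.69, 6.44 and 5.35 FPKM in the mock and at 5.2, 7.42 and 6.09 FPKM with salinomycin. In HMLE-pBp it lay at 6.92, 7.77 and 7.06 FPKM and at 6.86, 8.46 and 8.49 FPKM. The groups overlapped in both lines. Its log2 fold changes were 0.15 ± 0.13 (95% interval -0.13 to 0.44, limma adjusted p = 0.429) and 0.11 ± 0.13 (-0.17 to 0.4, adjusted p = 0.579). Its recovered gene length, 1949 bases, lies 11.2% from the nearest reference transcript, against 0.856% to 3.02% for the other 4 genes, which bears on its level more than on its fold change. CREB3L4 overlaps JTB (95 exon bases) and SLC39A1 (179) on the opposite strand, and both are higher than it: JTB had means of 50.6 to 118 FPKM and SLC39A1 43.5 to 152 FPKM over the 4 groups. CREB3L3, the remaining family member and mainly a liver gene, had 0 reads in all 12 libraries, which allows up to 3 reads, or 0.167 per megaread in the shallowest library.

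MBTPS1 differed between the lines and did not pass the test for treatment. In HMLE-Twist it lay at 32.4, 37.1 and 30.8 FPKM in the mock and at 36.5, 38 and 35 FPKM with salinomycin, and in HMLE-pBp at 64.8, 69 and 68 FPKM and at 66.4, 72.8 and 69.9 FPKM. Mock and treated libraries overlapped within each line, and the lines did not overlap. The salinomycin log2 fold changes were 0.13 ± 0.08 (95% interval -0.05 to 0.3, limma adjusted p = 0.27) in HMLE-Twist and 0.05 ± 0.08 (-0.12 to 0.22, adjusted p = 0.698) in HMLE-pBp. Between lines MBTPS1 was lower in HMLE-Twist by a log2 fold change of -0.99 ± 0.08 in the mock (limma adjusted p = 2.45e-07) and -0.91 ± 0.08 with salinomycin (adjusted p = 6.96e-07), and both calls held under all 22 alternatives. MBTPS2, the site-2 protease, showed the same order: 12.2 to 15.5 FPKM in HMLE-Twist mock, 12.3 to 12.9 in HMLE-Twist salinomycin, 21.4 to 24.6 in HMLE-pBp mock and 20 to 23 in HMLE-pBp salinomycin. Its fold change between lines in the mock was -0.74 ± 0.1 (adjusted p = 1.86e-05), and its salinomycin responses, -0.09 ± 0.1 and -0.12 ± 0.1, did not pass. The ratio of MBTPS1 to MBTPS2 was 2.5 ± 0.391, 2.9 ± 0.0909, 2.91 ± 0.112 and 3.3 ± 0.172 (SD, n = 3) in HMLE-Twist mock, HMLE-Twist salinomycin, HMLE-pBp mock and HMLE-pBp salinomycin.

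Of the 5 genes, 3 passed the test for salinomycin in HMLE-Twist, 2 higher and 1 lower, where 26.6% of all tested genes passed (13% higher and 13.6% lower). The 5 were chosen with earlier results of these data known, so counts of them are no independent evidence. In HMLE-pBp 1 of 5 passed, where 19.3% of genes did (9.76% higher and 9.49% lower). These 5 include CREB3L1, whose 0 to 4 reads per library left no room for a fall in HMLE-pBp. For the difference of the responses, CREB3L2 passed of the 4 genes with reads in both lines, against 13.6% of all tested genes. CREB3L1 is not counted there, since it entered the test only through HMLE-Twist and its difference of -0.68 restates its fall of -0.69 in that line. With the replicate number as a block within each line these shares rose to 40.7%, 36.9% and 32.5%, while no member's call changed in these contrasts. Over the 5 genes the median log2 fold change came to 0.15 for HMLE-Twist and 0.05 for HMLE-pBp, beside -0.01 over all tested genes in each. The HMLE-pBp median also includes CREB3L1. In the comparison of the lines, 73.4% of genes differed in the mock and 63.5% with salinomycin, so that a call there is ordinary. CREB3 did not pass between lines in the mock (-0.21 ± 0.12, limma adjusted p = 0.135) and was lower in HMLE-Twist with salinomycin (-0.47 ± 0.12, adjusted p = 0.00406). CREB3L2 likewise did not pass in the mock (0.13 ± 0.11, adjusted p = 0.283) and was higher in HMLE-Twist with salinomycin (0.68 ± 0.11, adjusted p = 0.000141). CREB3L4 was lower in HMLE-Twist in the mock (-0.35 ± 0.13, adjusted p = 0.028), and missed the threshold with salinomycin (-0.31 ± 0.13, adjusted p = 0.0547). The mock call of CREB3L4 was lost under upper quartile scaling (-0.31, adjusted p = 0.0537) and without HMLE-Twist mock 1 (-0.26, 0.102), HMLE-Twist mock 3 (-0.34, 0.0585), HMLE-pBp mock 2 (-0.31, 0.0914) or HMLE-pBp mock 3 (-0.37, 0.0516). Under salinomycin CREB3L4 passed with the replicate block over all 12 libraries (-0.31, adjusted p = 0.00406), and without HMLE-Twist mock 1 (0.0403), HMLE-Twist mock 2 (0.0448), HMLE-Twist salinomycin 2 (0.0172) or HMLE-pBp salinomycin 1 (0.0254).

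**Figure D2:**
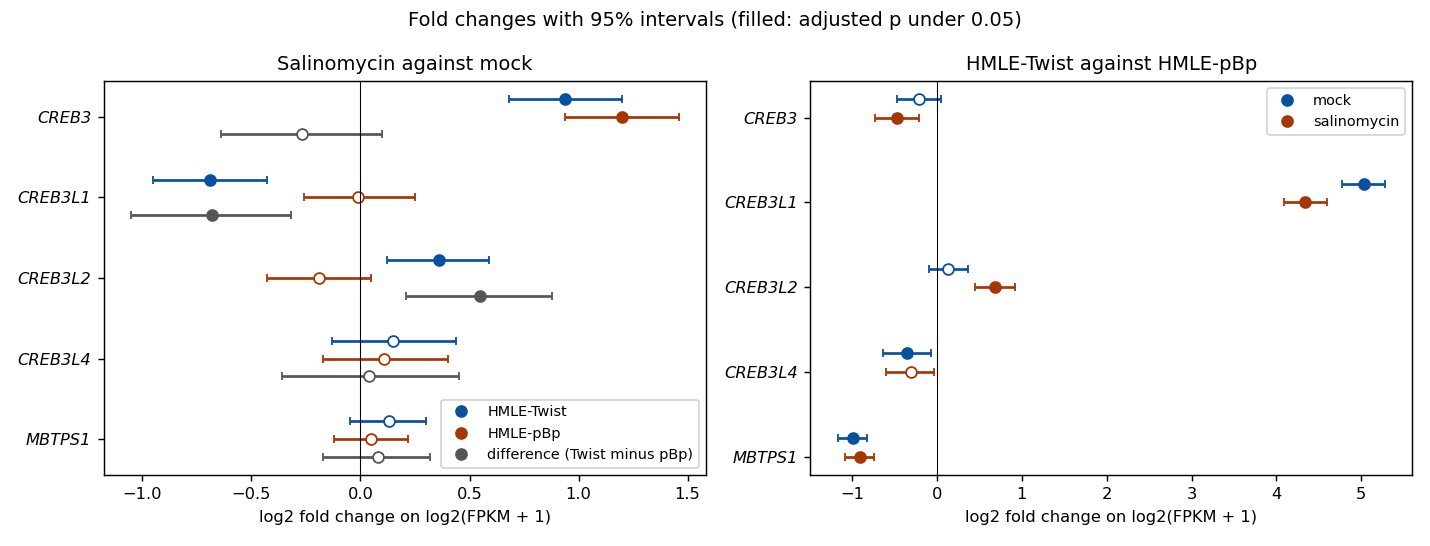
Log2 fold changes on log2(FPKM + 1) of the 5 genes (x axis) with 95% intervals from the limma fit, for salinomycin against mock (left, with the difference of the 2 responses) and for the lines against each other (right). Filled points passed at an adjusted p under 0.05. On the left these are CREB3 in both lines, and CREB3L1 and CREB3L2 in HMLE-Twist and in the difference. On the right they are CREB3L1 and MBTPS1 in both, CREB3L4 in the mock, and CREB3 and CREB3L2 with salinomycin. CREB3L1 entered the test only through HMLE-Twist, so its points on the right and in the difference support no count.

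On the recovered gene lengths, the order of the levels changed with treatment. A level compared between genes depends on the length used. The recovered length was 0.428 of the union of reference exons for MBTPS1, 0.671 for CREB3L1 and CREB3L4, 0.869 for CREB3L2 and 0.973 for CREB3. The order, ranks, sums and shares below hold for the recovered lengths and were not redone with others. In HMLE-Twist mock, MBTPS1 (mean 33.4 FPKM), CREB3L1 (32.8) and CREB3 (31.9) overlapped, and CREB3L2 (16.7) and CREB3L4 (5.5) lay below without overlap. With salinomycin in that line CREB3 (61.9 FPKM) came first, ahead of MBTPS1 (36.5), while CREB3L2 (21.6) and CREB3L1 (19.9) overlapped. In HMLE-pBp mock, MBTPS1 (67.3 FPKM) led CREB3 (36.9), CREB3L2 (15.1) and CREB3L4 (7.25), and with salinomycin CREB3 (87.3) led MBTPS1 (69.7), none of these neighbours overlapping. CREB3 stood above 81.5% of tested genes in HMLE-Twist mock and above 91.2% with salinomycin, and in HMLE-pBp above 83.1% and 93.5%. Summed over the 4 factors, the level was 86.8 ± 6.3 FPKM in HMLE-Twist mock and 110 ± 3.96 with salinomycin, and 59.3 ± 2.79 in HMLE-pBp mock and 108 ± 14.5 with salinomycin (SD, n = 3). The share of CREB3 in that sum went from 36.7% ± 0.92 to 56.5% ± 2.94 in HMLE-Twist and from 62.3% ± 1.49 to 80.2% ± 4.41 in HMLE-pBp (SD, n = 3). CREB3L1 went from 37.6% ± 3.16 to 18.2% ± 2.33 of the sum in HMLE-Twist and was at most 0.128% in any HMLE-pBp library. CREB3L2 held 19.3% and 19.7% of the sum in HMLE-Twist and 25.4% and 12.3% in HMLE-pBp. These shares follow from the levels above and were not tested on their own.

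**Figure D3:**
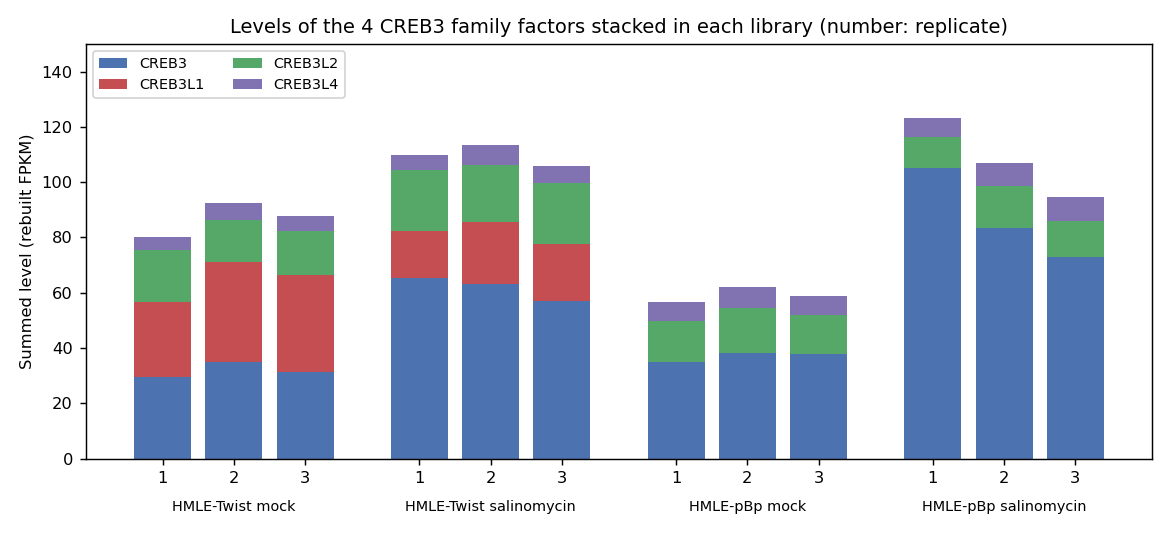
Stacked levels of CREB3, CREB3L1, CREB3L2 and CREB3L4 (y axis, rebuilt FPKM from 0) in each of the 12 libraries, with the replicate number on the x axis and the group below. CREB3 makes up 54 to 59.7% of the stack in HMLE-Twist salinomycin and 77.3 to 85.2% in HMLE-pBp salinomycin, and CREB3L1 is visible only in HMLE-Twist.

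Genes reported as targets of the family mostly rose with salinomycin. Of 23 listed, 22 were tested and COL2A1 was under the filter. In HMLE-Twist 15 rose and 0 fell (median log2 fold change 0.76), and in HMLE-pBp 15 rose and 0 fell (median 0.55), against 13% and 9.76% of all genes higher and medians of -0.01. Of the 22, 13 rose in both lines. The count ran from 14 to 17 in HMLE-Twist and from 13 to 17 in HMLE-pBp over the alternatives. In HMLE-pBp it was 13 without the first salinomycin replicate, and also without salinomycin 2, without any 1 of the 3 HMLE-pBp mock libraries and with no filter. ARF4, the Golgi GTPase named above, lay at 172, 151 and 148 FPKM in HMLE-Twist mock and at 434, 450 and 385 FPKM with salinomycin. In HMLE-pBp ARF4 lay at 113, 113 and 107 FPKM in the mock and at 570, 375 and 326 FPKM with salinomycin, with the first treated replicate again the highest. Its log2 fold changes were 1.43 ± 0.16 (limma adjusted p = 7.79e-05) and 1.88 ± 0.16 (adjusted p = 1.96e-05). KDELR3, a receptor that returns proteins to the ER, rose by 2.5 ± 0.13 and 2.95 ± 0.13. HERPUD1, an ER membrane protein of degradation complexes, rose by 1.64 ± 0.13 and 1.87 ± 0.13, and the COPII coat subunit SEC24D by 1.32 ± 0.15 and 1.77 ± 0.15. The collagen chain COL1A1, a reported target of CREB3L1, did not pass in either line (0.03 ± 0.17, adjusted p = 0.932, and 0.09 ± 0.17, adjusted p = 0.765). The difference of the responses passed for 3 of the 22, beside a background of 13.6% of all tested genes: the cargo adaptor TMED3 (1.12 ± 0.14, adjusted p = 0.000901), the disulfide isomerase PDIA5 (0.94 ± 0.13, adjusted p = 0.00119) and the KDEL receptor KDELR2 (0.42 ± 0.12, adjusted p = 0.0428, lost in 11 of 22 alternatives). TMED3 rose by 1.01 ± 0.1 in HMLE-Twist and had -0.11 ± 0.1 (adjusted p = 0.459) in HMLE-pBp. Several of these genes are also known targets of other ER stress factors, and whether CREB3 family proteins acted on them was not tested.

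**Figure D4:**
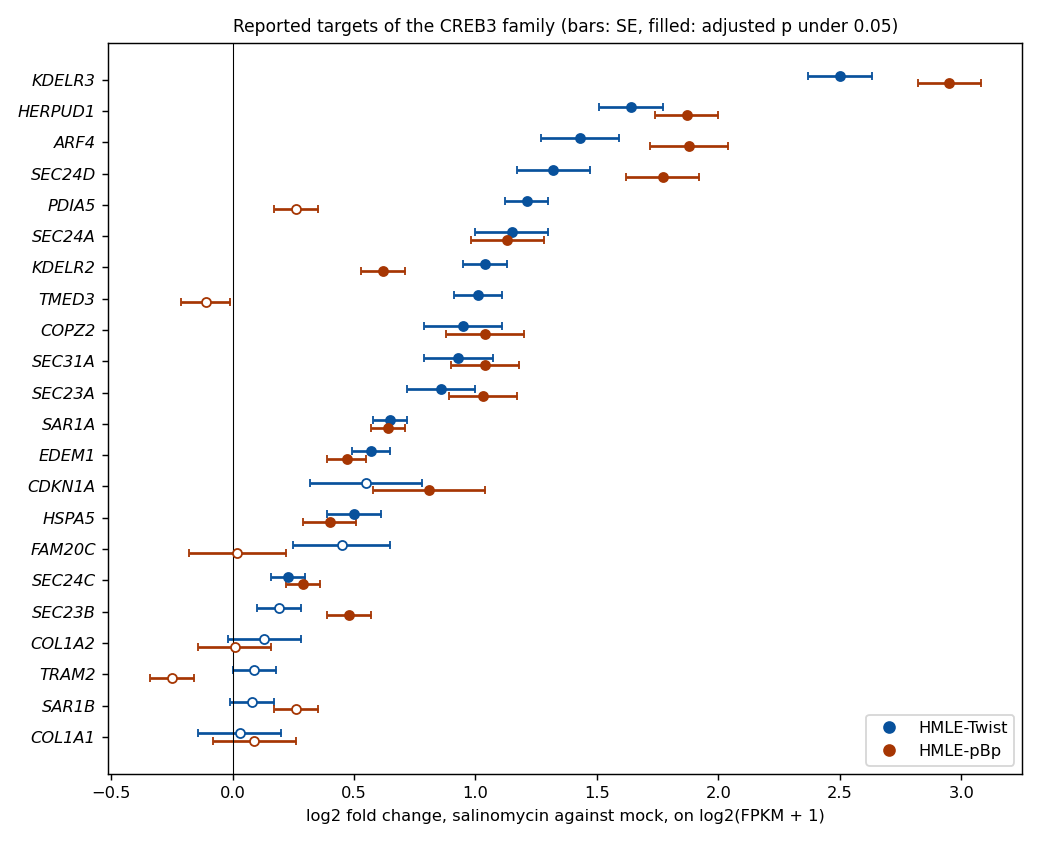
Log2 fold changes with salinomycin on log2(FPKM + 1) (x axis, points with SE bars) of the 22 tested genes reported as targets of the family, in HMLE-Twist (blue) and HMLE-pBp (brown), filled where the adjusted p is under 0.05. In each line 15 of the 22 are filled and to the right of 0, led by KDELR3 at 2.5 and 2.95.

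Genes of the protease machinery and its other membrane-bound cargo were compared next. The list also holds another protease, FURIN, and the regulators CREBRF, HCFC1 and CREBZF. Of 16 listed genes, 15 were tested, CREB3L3 being at 0 reads. In HMLE-Twist 4 rose and 2 fell (median log2 fold change 0.14), beside 13% and 13.6% of all tested genes. In HMLE-pBp 4 rose and 1 fell (median -0.04), beside 9.76% and 9.49%. The HMLE-pBp count of falls was 5 with the replicate number as a block within each line and 3 with the block over all 12 libraries. It was 3 without HMLE-Twist mock 1, and 2 without HMLE-Twist mock 3 or HMLE-pBp salinomycin 3. It was 0 without any 1 of the other 9 libraries. The HMLE-Twist count of falls was 1 without HMLE-Twist mock 2, salinomycin 1 or salinomycin 2. With the replicate number as a block within each line, 6 rose in HMLE-Twist, and 6 also rose there without the first HMLE-pBp salinomycin replicate. INSIG1, which holds the SREBP-SCAP complex in the ER, fell by 1.14 ± 0.25 on the log2 scale in HMLE-Twist, from 109 to 49 FPKM (limma adjusted p = 0.00622). INSIG1 rose by 1.53 ± 0.25 in HMLE-pBp, from 90.1 to 260 FPKM (adjusted p = 0.00196), and the responses differed by -2.66 ± 0.36 (adjusted p = 0.00128). SREBF1, a sterol factor cut by the same proteases, had -0.85 ± 0.24 in HMLE-Twist (adjusted p = 0.0226, lost in 4 of 23 alternatives). INSIG2 rose in both lines (0.42 ± 0.09 and 0.73 ± 0.09). CREBRF, a regulator that lowers CREB3 protein, rose in both by 0.5 ± 0.11 (adjusted p = 0.00698) and 0.51 ± 0.11 (adjusted p = 0.0102), from low means of 1.26 and 0.98 FPKM. HCFC1, a nuclear cofactor that binds CREB3, did not pass in either line (0.32 ± 0.15, adjusted p = 0.157, and -0.16 ± 0.15, adjusted p = 0.491). The protease FURIN fell in HMLE-pBp (-0.7 ± 0.22, adjusted p = 0.0475), a call lost in 13 of 23 alternatives. Its responses differed by 1.22 ± 0.32 (limma adjusted p = 0.0263), a call lost in 6 of 22 alternatives.

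Other regulators and reported targets of Golgi stress were compared the same way. Of 25 listed genes, 24 were tested and KLF2 was under the filter. In HMLE-Twist 9 rose and 1 fell (median log2 fold change 0.34), beside 13% and 13.6% of all tested genes, and in HMLE-pBp 5 rose and 2 fell (median 0.13), beside 9.76% and 9.49%. The HMLE-pBp count of falls ran from 0 to 4 over the alternatives: 4 with the replicate block over all 12 libraries, 1 without HMLE-pBp mock 2 or salinomycin 1, and 0 without HMLE-pBp mock 3. With the replicate number as a block within each line 13 rose in HMLE-Twist and 7 in HMLE-pBp. The golgins GOLGA2 (1.39 ± 0.07 and 1.18 ± 0.07) and GOLGB1 (0.92 ± 0.1 and 0.96 ± 0.1) rose in both lines. CHPF, an enzyme of chondroitin chains, rose in HMLE-Twist from 6.31 to 27.7 FPKM (2.05 ± 0.31, limma adjusted p = 0.000634), and HS6ST1, an enzyme of heparan sulfate, fell in HMLE-pBp (-1 ± 0.24, adjusted p = 0.0132). The transcription factors TFE3, TFEB and MITF were not higher by the test in either line. MITF went from 5.41 to 3.51 FPKM in HMLE-Twist and from 1.07 to 1.25 FPKM in HMLE-pBp. Its responses differed by -0.61 ± 0.17 (limma adjusted p = 0.0349), a call lost in 13 of 21 alternatives.

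A list of other bZIP factors held FOSL1 and genes of the JUN, MAF, CEBP and NFE2L groups beside the CREB and ATF families. Of these, 25 of 26 were tested. In HMLE-Twist 12 rose and 0 fell (median log2 fold change 0.53), beside 13% and 13.6% of all tested genes, and in HMLE-pBp 6 rose and 1 fell (median 0.23), beside 9.76% and 9.49%. The counts of falls ran from 0 to 2 in each line over the alternatives. The HMLE-pBp count of rises was 10 with the replicate number as a block within each line and 4 with only the compared groups in the fit. It was 3 without the first HMLE-pBp salinomycin replicate and 2 without HMLE-pBp mock 3. FOSL1 (2.04 ± 0.19, limma adjusted p = 2.24e-05) and MAFF (2 ± 0.21, adjusted p = 4.46e-05) led in HMLE-Twist. Their responses differed from those in HMLE-pBp by 1.81 ± 0.27 (adjusted p = 0.00176) and 1.57 ± 0.29 (adjusted p = 0.006). DDIT3 (CHOP) rose by 1.85 ± 0.35 in HMLE-pBp (adjusted p = 0.00375) and by 1.03 ± 0.35 in HMLE-Twist (adjusted p = 0.0457), the latter lost in 11 of 23 alternatives. XBP1, the spliced factor of the unfolded protein response, rose in both lines, from 57.3 to 108 FPKM in HMLE-Twist (0.91 ± 0.13, adjusted p = 0.000446) and from 121 to 224 FPKM in HMLE-pBp (0.89 ± 0.13, adjusted p = 0.000887). The lists were made with earlier results of these data known, so their counts describe these libraries and are no independent evidence.

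The genes with a pattern most like each member were found by Pearson r of log2(FPKM + 1) over the 12 libraries after the mean of each line was taken off. The r values are descriptions, since the libraries share treatment groups and sequencing. CREB3 was most like VLDLR, a lipoprotein receptor (r = 0.992), HERPUD1 (0.992) and ARF4 (0.988), and 128 of 12030 other genes reached 0.95. CREB3L1 was most like WSCD1 (0.985), ZNF486 (0.98) and PRSS35 (0.979), with 20 genes at 0.95 or more. With almost no CREB3L1 reads in HMLE-pBp, these r values rest mainly on the HMLE-Twist libraries. The salinomycin log2 fold changes of the 3 genes were -0.53, -0.23 and -0.76 in HMLE-Twist and 0, 0 and -0.04 in HMLE-pBp. For CREB3L2 the closest genes were YEATS2 (0.944), LMTK2 (0.943) and ATL2 (0.937), for CREB3L4 SLC35E2 (0.893), MRC2 (0.862) and SYTL1 (0.86), and for MBTPS1 MANBA (0.909), SLC35E2B (0.895) and ZNF687 (0.863), and none of these 3 members had a gene at 0.95. Between members, CREB3 and CREB3L1 had r = -0.532, CREB3L1 and CREB3L2 r = -0.757, CREB3L4 and MBTPS1 r = 0.744, and CREB3 and CREB3L2 r = 0.058.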

How the data were processed

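Per the labels' protocols, RNA was extracted and stranded mRNA libraries were made with 75 cycles per end. DESeq2, with the version string 1.1.0, and the build hg19 are listed in the submitters' processing notes. No aligner, counter, strand setting or annotation is named in the sources used here. The mock tables hold FPKM deposited by the authors. The salinomycin tables deposited by the authors hold log2 values with the spread between libraries shrunk. Each table was normalized on its own.

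Whole reads were recovered from both the mock and the salinomycin values. Gene lengths came from the mock values only and were used for all 12 libraries. For 225 genes the mock reads and the length were raised by a multiple set by reference lengths. A gene's length was accepted only where its mock reads lay within 0.002 of a whole number. That distance is a bound set in advance and no measure of accuracy. Of the salinomycin values, 97.9% (HMLE-Twist) and 95.7% (HMLE-pBp) lay within 0.1 of a whole number (for genes with a mean over 10000 reads 58.1% and 50.7%). For the members the distance was at most 0.259 reads. FPKM was rebuilt with median-of-ratios size factors over 12 libraries, and 1111 genes with unsettled reads were left out. Genes with at least 1 FPKM in at least 3 libraries entered 1 limma fit (version 3.58.1, R 4.3.3, eBayes with a trend) on log2(FPKM + 1) without covariates, which was tested on simulated data. The alternatives were the replicate block, pseudocount, filter, scaling, limma-voom, gene lengths, fit samples and each library left out.

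Same-numbered libraries of a line deviated together (r of 0.45, 0.43 and 0.72 in HMLE-Twist and 0.54, 0.23 and 0.6 in HMLE-pBp), so the numbers pair libraries within a line. Between lines replicate 2 did not (0.07 and 0.04). The labels call the replicates biological and say no more of their source.

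The text names all members and MBTPS2, CREB3L3, CREBRF, HCFC1, ARF4 and COL1A1, and describes likeness by 3 genes per member. Other genes were drawn from up to 4 called genes with the largest change per list and contrast. Of those, STX3, ACBD3, ST3GAL1, MAFG, MAFK, ATF3 and ATF4 are not described. List counts for the difference of the responses are given for the reported targets only. Genes overlapping a member, GBA2, TLN1, JTB and SLC39A1, and TFE3 and TFEB were added after seeing the data, as were the list counts under the alternatives. Members and lists were chosen with earlier results of these data known.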

Additional observations from a re-analysis of the deposited data

Results flagged for a closer look

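The interaction term of the limma fit, which compares the salinomycin responses of the lines, passed for CREB3L2. That call was lost in 10 of 22 alternatives, with limma adjusted p-values up to 0.092. The difference, HMLE-Twist minus HMLE-pBp, was 0.55 on the log2(FPKM + 1) scale, with all 3 treated HMLE-Twist libraries above the mock libraries and overlapping groups in HMLE-pBp. The same term also passed for CREB3L1, at -0.68, but this is no test of a differing response: at most 4 reads in any HMLE-pBp library left no room for a fall there, and the value restates the fall in HMLE-Twist.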

How the results depend on the processing

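Over 23 alternatives the 5 genes gave 560 fold changes in the 5 contrasts, of which 523 kept direction and side of the threshold, 26 lost a call, 5 gained one and 6 changed sign. No alternative moved the median of all genes by over 0.1. The sign changed for CREB3L1 in HMLE-pBp, where it has almost no reads (0.21 with limma-voom, and -0.03 to 0.02 with 1 library left out), and for the near-zero difference of CREB3L4 (-0.07 to 0.15 with 1 library left out, below 0 without HMLE-Twist mock 1, HMLE-Twist salinomycin 2, HMLE-pBp mock 2 or HMLE-pBp salinomycin 1). With the replicate block within each line the genes called for salinomycin went from 3204 to 4891 in HMLE-Twist, from 2316 to 4435 in HMLE-pBp and from 1632 to 3907 for the difference. With the block over all 12 libraries the last 2 were 4064 and 3509. The block changed no member's call in these 3 contrasts. Counting CREB3L1, only 1 member was called for the difference with a pseudocount of 0.1, with no filter and with limma-voom. Leaving out 1 library gave 2272 to 3534 genes in HMLE-Twist, 1191 to 3194 in HMLE-pBp and 790 to 2397 for the difference, and 2 to 3, 1 and 0 to 2 members called. The HMLE-pBp count was 1411 without HMLE-pBp mock 2, 1191 without mock 3 and 1282 without salinomycin 1. The count for the difference was 903, 834 and 818 without HMLE-Twist mock 2, salinomycin 1 and salinomycin 3, and 882, 790 and 1081 without HMLE-pBp mock 2, mock 3 and salinomycin 2. The causes were not tested. Depth limits CREB3L1 in HMLE-pBp, with 0 to 4 reads per library.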
